A study of Mus musculus with 18 samples.

Results

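The 8 genes described here encode 6 tetraspanins (Cd9, Cd81, Cd63, Cd82, Cd151 and Tspan4) and 2 lysosome-associated membrane proteins (Lamp1 and Lamp2), and they are 8 of the 21638 genes in the deposited count table. They were chosen by name, and Cd9 and Lamp1 lead the set because their levels were lower in the libraries labelled with the Ezh2 deletion. Values of that contrast are therefore given for the 8 genes as a description, without a test. All 8 were in the table and all 8 passed the filter on low counts, with at least 10 counts in 16 of 18 libraries for Cd63, 17 for Cd82 and 18 for each of the others.

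Tetraspanins are small proteins that cross the membrane 4 times and gather integrins, immunoglobulin-like proteins and proteases into patches of the plasma membrane. Several of them, among them Cd9, Cd63 and Cd81, also pass through late endosomes and are standard markers of extracellular vesicles. Lamp1 and Lamp2 are heavily glycosylated proteins of the membrane that bounds lysosomes and late endosomes, and one form of Lamp2 is the receptor of chaperone-mediated autophagy. Vascular endothelium carries these proteins at cell contacts and in its endosomes and lysosomes.

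Endothelial cells of the adult mouse cortex were sorted as CD31-positive cells without CD41, a platelet protein, and without CD45, a leukocyte protein, and their mRNA was amplified with a SMART-Seq kit for very small inputs. The 18 libraries formed 6 groups of 3. Wild-type mice (labelled WT) had a sham operation or an occlusion of the middle cerebral artery (MCAO, a model of stroke), and each gave libraries of the operated side (ipsilateral) and of the opposite side (contralateral). Occluded mice labelled Hdac2 ECKO or Ezh2 ECKO gave ipsilateral libraries only. ECKO stands for a deletion in endothelial cells, made with Hdac2lox/lox or Ezh2lox/lox alleles and Cdh5CreERT2, a tamoxifen-inducible recombinase driven by an endothelial promoter. Every library, those of the WT mice included, is labelled as treated with tamoxifen at 75 mg per kg. The design text gives 5 doses from day 0 to day 4 for the ECKO mice, and the brains were taken on day 7. Strain, sex and exact age were not given in the sources used here, nor was it said whether the 3 libraries of a group came from separate mice, so the p-values measure only the spread between these libraries.

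Total counts ran from 25791401 to 57576255 per library, and 0 pairs of libraries had identical counts. All 13 endothelial marker genes were detected in every library of every group. The targeted genes did not check the deletion labels: Hdac2 was at 57.6 to 87.9 CPM in Hdac2 ECKO and 68.2 to 96.1 in MCAO ipsilateral. CPM are counts in the usual per-million unit, scaled by the library total after its adjustment by TMM, a scaling between libraries. Ezh2 lay between 8.41 and 19.7 CPM under its own deletion label, against 4.45 to 7.85 in MCAO ipsilateral. Ezh2 was thus higher, not lower, than in MCAO ipsilateral without overlap, as were 13.6% of tested genes, while it overlapped the other groups. A gene-level count can hold reads from exons outside the deleted part, and the cause of the higher level was not tested. Directions below are therefore those of the libraries labelled Ezh2 ECKO and Hdac2 ECKO. Counts on 1466 olfactory and vomeronasal receptor genes, a measure of diffuse background reads, ran from 152 to 716 CPM of the unscaled total in 16 libraries and reached 1889 in MCAO contralateral replicate 1 and 2083 in Ezh2 ECKO replicate 2.

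The genes lie on 6 chromosomes of the mouse build GRCm38. Cd9 is at chr6:125460266-125494791 on the minus strand, Cd63 at chr10:128900989-128912822 (plus), Cd81 at chr7:143052739-143067934 (plus) and Cd82 at chr2:93419111-93463140 (minus). Cd151 (chr7:141467392-141471473) and Tspan4 (chr7:141475240-141493427) are neighbours on the plus strand, 3766 bases apart. Lamp1 is at chr8:13159161-13175338 (plus) and Lamp2 at chrX:38401357-38456454 (minus). Of the 50-base windows in each protein-coding Cd63 transcript of GENCODE M21, between 36.5% and 43.6% also occur in the transcribed pseudogene Cd63-ps, so the counts of Cd63 are uncertain. For Cd9, 14.4% of windows also occur in other genes, 8.48% in the overlapping gene Gm26728. Genes on the opposite strand shared 10.9% of the windows of Tspan4 (with Chid1) and 5.9% of those of Lamp1 (with Grtp1). The strand setting of the counting was not given, so reads from those stretches cannot be assigned to one gene.

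The promoters of the 2 leading genes are shown because their levels were lowest in the same 3 libraries. Both come from RefSeq on GRCm38.p6 and run 5′ to 3′ from 250 bases before the transcription start to 50 after it. Capitals mark CACGTG, the E-box core, which reads the same on both strands, and GGGCGG, a GC-box, which was searched on both strands (CCGCCC on the other). The 2 motifs did not overlap in either sequence.

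Lamp1 promoter, chr8:13158911-13159210, plus strand: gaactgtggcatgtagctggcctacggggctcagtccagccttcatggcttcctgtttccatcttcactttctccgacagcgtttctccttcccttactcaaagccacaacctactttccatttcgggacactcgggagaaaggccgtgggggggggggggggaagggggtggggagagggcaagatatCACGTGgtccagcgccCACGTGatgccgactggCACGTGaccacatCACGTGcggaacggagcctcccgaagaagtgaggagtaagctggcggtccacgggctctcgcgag

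Cd9 promoter, chr6:125494711-125495010, minus strand: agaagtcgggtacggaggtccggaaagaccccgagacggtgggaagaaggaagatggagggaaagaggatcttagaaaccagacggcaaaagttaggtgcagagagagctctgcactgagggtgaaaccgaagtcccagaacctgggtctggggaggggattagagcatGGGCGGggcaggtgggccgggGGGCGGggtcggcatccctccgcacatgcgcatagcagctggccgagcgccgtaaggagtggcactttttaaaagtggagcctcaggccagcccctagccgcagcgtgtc

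The Lamp1 promoter held CACGTG 4 times, starting at -61, -45, -28 and -15 from the transcription start, and held no GGGCGG. Of 32851 mouse promoters of this length, 7.15% held CACGTG at least once and 0.0244% (8 promoters) held it at least 4 times. The Cd9 promoter held no CACGTG and held GGGCGG at -81 and -60, and 19.5% of promoters held GGGCGG at least 2 times. Among the other 6 genes, the second of 2 Tspan4 promoters held 1 CACGTG, at -51, and the Lamp2 promoter held none. A match describes these letters and is not evidence that a factor binds there.

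Per length, Cd9 and Cd81 were the most abundant of the 8 genes. Over the 18 libraries the mean level was 169 ± 94.8 CPM per kilobase (SD, n = 18) for Cd9 and 159 ± 80.9 for Cd81. Lamp1 followed with 49.7 ± 25.7 CPM per kilobase and Tspan4 with 38.3 ± 22.8. Cd151, at 19.6 ± 5.01, and Lamp2, at 16.6 ± 4.96 CPM per kilobase, differed by less than either spread. Cd63, at 2.67 ± 2.93, and Cd82, at 1.30 ± 1.05 CPM per kilobase, were low everywhere, with counts from 0 to 1802 and from 6 to 442 per library. These low genes also varied most between libraries of the same group: the within-group SD of the log2 level was 2.02 for Cd63 and 1.59 for Cd82, against 0.37 for Cd151 and Lamp1, 0.41 for Lamp2, 0.51 for Cd81, 0.56 for Cd9 and 0.78 for Tspan4. The median over the 7814 tested genes whose mean reached 10 CPM was 0.57.

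**Figure D1:**
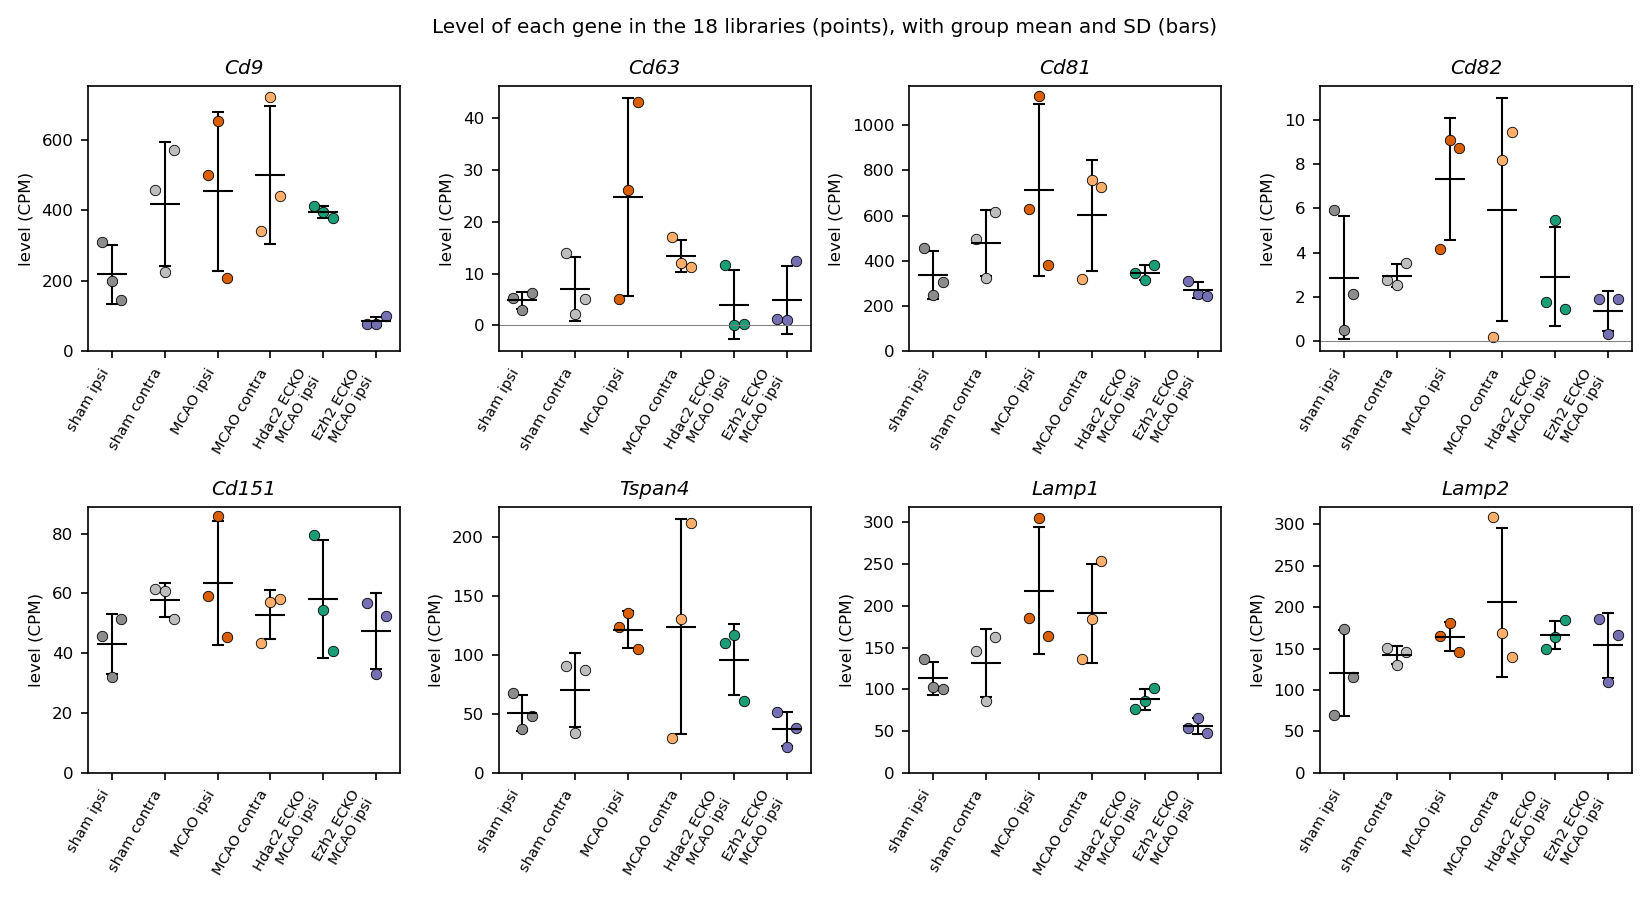
Level of each of the 8 genes in CPM (linear axis) in the 18 libraries, by group, with each point 1 library and the bars showing the mean and SD of 3 libraries. Cd9 and Lamp1 are lowest in the 3 libraries labelled Ezh2 ECKO, at 76.9 to 99.9 and 48.0 to 66.3 CPM, while Lamp2 spans 110 to 185 CPM there.

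Cd9, a partner of integrins that eggs need for fusion with sperm, was at 311, 199 and 146 CPM in sham ipsilateral replicates 1 to 3 and at 458, 224 and 570 in sham contralateral. It was at 499, 654 and 209 CPM in MCAO ipsilateral and at 341, 720 and 441 in MCAO contralateral. The Hdac2 ECKO libraries held 411, 396 and 377 CPM and the Ezh2 ECKO libraries 76.9, 78.1 and 99.9. The 3 Ezh2 ECKO libraries lay below the other 15, of which the lowest was sham ipsilateral replicate 3. In order of mean level the groups ran from Ezh2 ECKO (85.0 ± 13.0 CPM; SD, n = 3) through sham ipsilateral (219 ± 84.1), Hdac2 ECKO (395 ± 17.1), sham contralateral (417 ± 177) and MCAO ipsilateral (454 ± 226) to MCAO contralateral (501 ± 197). The last 4 of these overlapped one another.

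Cd81, a widely expressed tetraspanin of the cell surface, was at 456, 249 and 307 CPM in sham ipsilateral, 497, 323 and 614 in sham contralateral, 630, 1128 and 384 in MCAO ipsilateral and 320, 756 and 727 in MCAO contralateral. It was at 347, 315 and 382 CPM in Hdac2 ECKO and at 310, 252 and 246 in Ezh2 ECKO. Both ECKO groups lay below all 3 MCAO ipsilateral libraries and overlapped sham ipsilateral. The ratio of Cd9 to Cd81, each per length, does not depend on the scaling between libraries: it was 0.349, 0.437 and 0.572 in Ezh2 ECKO, 1.12, 0.817 and 0.769 in MCAO ipsilateral and 1.67, 1.77 and 1.39 in Hdac2 ECKO. It was 0.961, 1.13 and 0.669 in sham ipsilateral. Relative to Cd81, Cd9 was thus lowest in the libraries labelled Ezh2 ECKO and highest in 2 of the 3 labelled Hdac2 ECKO.

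Cd63, the tetraspanin of late endosomes and Weibel-Palade bodies, the storage granules of endothelium, was at 5.06, 26.2 and 43.1 CPM in MCAO ipsilateral and 17.0, 12.0 and 11.3 in MCAO contralateral. It was at 11.7, 0 and 0.265 CPM in Hdac2 ECKO and at 1.24, 1.02 and 12.4 in Ezh2 ECKO. The count of 0 allows up to 0.0701 CPM of the unscaled total (3 counts, counting error only). Most low counts were even, and the limit is higher if counts came in pairs. In the sham groups Cd63 ran from 2.15 to 14.0 CPM. Cd63 thus ranged widely inside groups, and 1 library set the mean of each ECKO group. Cd82, a tetraspanin that restrains cell migration, was at 4.15, 9.09 and 8.73 CPM in MCAO ipsilateral, between 0.188 and 9.47 in the other WT libraries, 1.47 to 5.48 in Hdac2 ECKO and 0.341 to 1.90 in Ezh2 ECKO.

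Cd151, the partner of laminin-binding integrins, was the steadiest of the tetraspanins. Its group means ran from 43.1 ± 9.91 CPM in sham ipsilateral to 63.5 ± 20.6 in MCAO ipsilateral (SD, n = 3), with 47.5 ± 12.6 in Ezh2 ECKO, and its Ezh2 ECKO libraries overlapped every other group. Tspan4, a tetraspanin of migrasomes, was at 67.6, 36.9 and 48.2 CPM in sham ipsilateral, 124, 136 and 105 in MCAO ipsilateral and 51.4, 22.3 and 38.5 in Ezh2 ECKO. Its level was 110, 117 and 61.4 CPM in Hdac2 ECKO, 90.5, 34.3 and 87.0 in sham contralateral and 29.5, 131 and 212 in MCAO contralateral. MCAO ipsilateral lay above both sham ipsilateral and Ezh2 ECKO without overlap. Over its neighbour Cd151, each per length, Tspan4 stood at 2.63, 1.99 and 2.91 in MCAO ipsilateral and at 1.14, 0.847 and 0.923 in Ezh2 ECKO. This ratio was 1.86, 1.45 and 1.18 in sham ipsilateral and 1.85, 0.71 and 2.13 in sham contralateral. It was 0.857, 2.9 and 4.59 in MCAO contralateral and 1.74, 2.72 and 1.9 in Hdac2 ECKO. These neighbouring genes thus did not keep one ratio, and Ezh2 ECKO overlapped both contralateral groups.

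Lamp1 was the more abundant of the lysosomal pair per length, by deposited gene lengths of 2675 bases against 9552 for Lamp2. In CPM the order was the reverse, with medians over the 18 libraries of 119 for Lamp1 and 157 for Lamp2. Lamp1 was at 136, 103 and 101 CPM in sham ipsilateral and 146, 85.6 and 163 in sham contralateral. After occlusion it was at 186, 305 and 164 CPM on the ipsilateral side and 136, 184 and 254 on the contralateral side. It was at 76.2, 86.2 and 102 CPM in Hdac2 ECKO and at 53.6, 66.3 and 48.0 in Ezh2 ECKO. The 3 Ezh2 ECKO libraries lay below the other 15, and Hdac2 ECKO lay below MCAO ipsilateral without overlap. Group means ran from Ezh2 ECKO (56.0 ± 9.39 CPM) and Hdac2 ECKO (88.0 ± 12.8) through sham ipsilateral (113 ± 19.6), sham contralateral (131 ± 40.5) and MCAO contralateral (191 ± 59.8) to MCAO ipsilateral (218 ± 75.6; SD, n = 3). From Hdac2 ECKO upwards, neighbours in this order overlapped.

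Lamp2 did not share this order. It was at 165, 181 and 146 CPM in MCAO ipsilateral, 150, 164 and 184 in Hdac2 ECKO and 185, 110 and 166 in Ezh2 ECKO. Its level was 70.4, 174 and 116 CPM in sham ipsilateral, 151, 130 and 146 in sham contralateral and 308, 169 and 140 in MCAO contralateral. All pairs of groups overlapped. Per length, Lamp1 over Lamp2 was 4.02, 5.99 and 4.00 in MCAO ipsilateral, 1.82, 1.88 and 1.97 in Hdac2 ECKO and 1.03, 2.15 and 1.03 in Ezh2 ECKO. In the sham ipsilateral libraries it was 6.89, 2.11 and 3.11. In sham contralateral it was 3.45, 2.35 and 3.97, and in MCAO contralateral 1.57, 3.87 and 6.47. The ratio lay below the 3 MCAO ipsilateral values in all 6 ECKO libraries. It also did so in every sham contralateral library and in most libraries of sham ipsilateral and MCAO contralateral.

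**Figure D2:**
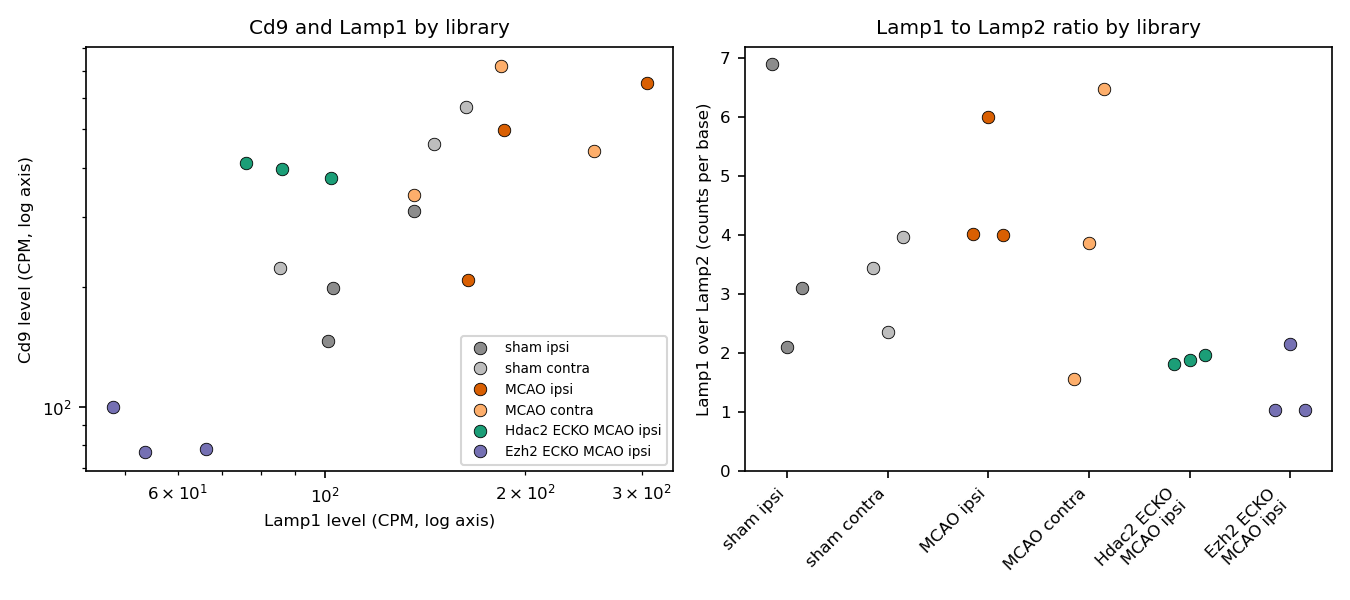
Left, Cd9 against Lamp1 in CPM (both axes logarithmic), 1 point per library; right, the ratio of Lamp1 to Lamp2 (counts per base, linear axis) in each library by group. The Ezh2 ECKO libraries stand alone at the low corner on the left, and on the right all 6 ECKO libraries, at 1.03 to 2.15, lie below the MCAO ipsilateral libraries, at 4.00 to 5.99. Most WT libraries of the other groups also lie below 4.00, with MCAO contralateral replicate 1 at 1.57.

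Against MCAO ipsilateral, all 8 genes had a lower fitted level in the libraries labelled Ezh2 ECKO. This is the contrast that chose the leading genes, so it is a description with no test of them. The log2 change was -2.42 ± 0.43 (SE) for Cd9, a ratio of means of 5.34, and -1.96 ± 0.34 for Lamp1, a ratio of 3.90. It was -1.41 ± 0.39 for Cd81, -1.70 ± 0.53 for Tspan4, -2.41 ± 1.09 for Cd82 and -2.35 ± 1.32 for Cd63. For Cd151 it was -0.42 ± 0.35, close to its own error, and for Lamp2 -0.09 ± 0.34, well below its error. The change of Lamp2 turned sign to 0.07 under RLE scaling and in DESeq2. In 5 genes (Cd9, Cd81, Cd82, Tspan4 and Lamp1) the 3 Ezh2 ECKO libraries all lay below the 3 MCAO ipsilateral ones, which was so for 15.3% of all tested genes. Cd9 and Lamp1 were also below all 15 other libraries, as were 151 of 17094 tested genes (0.883%). The median log2 change was -1.83 over the 8 genes and 0.17 over all tested genes (0.36 with RLE scaling).

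Over the whole table, edgeR's quasi-likelihood test called 250 of 17094 genes (1.46%) in this contrast at an adjusted p under 0.05, 39 higher (0.228%) and 211 lower (1.23%). With RLE scaling the split was 119 higher and 249 lower. The count rested on single libraries: it was 5 without MCAO ipsilateral replicate 1 and also 5 without replicate 2, 8 and 24 without Ezh2 ECKO replicates 3 and 2, and 1362 without MCAO contralateral replicate 1. It was 78, 143, 91 and 137 without sham contralateral replicates 1 and 3 and sham ipsilateral replicates 3 and 1, and 162 and 93 without Hdac2 ECKO replicates 1 and 2. Leaving out libraries moved the change of Cd9 between -2.80 and -2.06 and that of Lamp1 between -2.17 and -1.64. For Cd81 it moved to -0.91 without MCAO ipsilateral replicate 2, and for Cd63 to -4.47 without Ezh2 ECKO replicate 3.

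Other measures moved with the Ezh2 ECKO label beside these genes. Total counts were 26343356 to 38055895 per library in Ezh2 ECKO and 40711581 to 51313194 in MCAO ipsilateral, without overlap. The part of depth was not tested. The summed level of 6 red cell genes was 70.5 to 671 CPM in Ezh2 ECKO (4 of 6 detected in all 3 libraries) and 38267 to 65446 in MCAO ipsilateral (5 of 6). In that list 5 of 6 genes were called lower. The red cell sum was also higher in every library of the other groups, from 19222 CPM in sham ipsilateral to 297852 in Hdac2 ECKO. The 13 endothelial markers summed to 21737 to 31015 CPM and 29266 to 42705, with 6 fitted higher and 7 lower. One of them was called: Ly6c1 fell from 14514 ± 4193 to 3550 ± 863 CPM (SD, n = 3), a log2 change of -2.03 (edgeR adjusted p 0.0291), which is more than the difference between the mean sums, 36341 and 26172. The 6 platelet markers summed to 18.0 to 29.6 and 36.3 to 39.5 CPM, with 5 of 6 fitted lower. The 5 neuron markers summed to 47.1 to 78.5 CPM in Ezh2 ECKO and 126 to 182 in MCAO ipsilateral, without overlap, although 3 of the 5 were fitted higher and the median was 0.57. The 12 microglia and leukocyte markers overlapped, at 10.4 to 23.4 against 11.1 to 31.5 CPM, as did the 10 oligodendrocyte markers (7.08 to 74.5 against 37.2 to 62.9), the 6 astrocyte markers (30.8 to 64.3 against 55.2 to 65.2) and the 9 pericyte and smooth muscle markers (26.4 to 169 against 38.8 to 104). No marker of these 8 lists was at 0 in all 3 libraries of either group, and Gpr17, an oligodendrocyte lineage gene called lower, was near it in Ezh2 ECKO at 0.0755 ± 0.0870 CPM. The part of these cells' RNA in the levels of the 8 genes was not tested, and in bulk libraries fewer cells of a type and less RNA per cell cannot be told apart. Background receptor counts were 268, 2083 and 600 CPM in Ezh2 ECKO and 154 to 296 in MCAO ipsilateral. Ezh2 ECKO replicate 1 had a background in the range of MCAO ipsilateral, but its total count, 38055895, was below the lowest there, 40711581. It is 1 library, so background, depth and label cannot be told apart, and their part was not tested. With the background receptor level as a covariate the changes of Cd9 and Lamp1 were -2.0 and -1.75. Those of Cd82, Tspan4 and Cd81 were -0.60, -0.75 and -0.86, and the median of the 8 genes was -0.81.

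**Figure D3:**
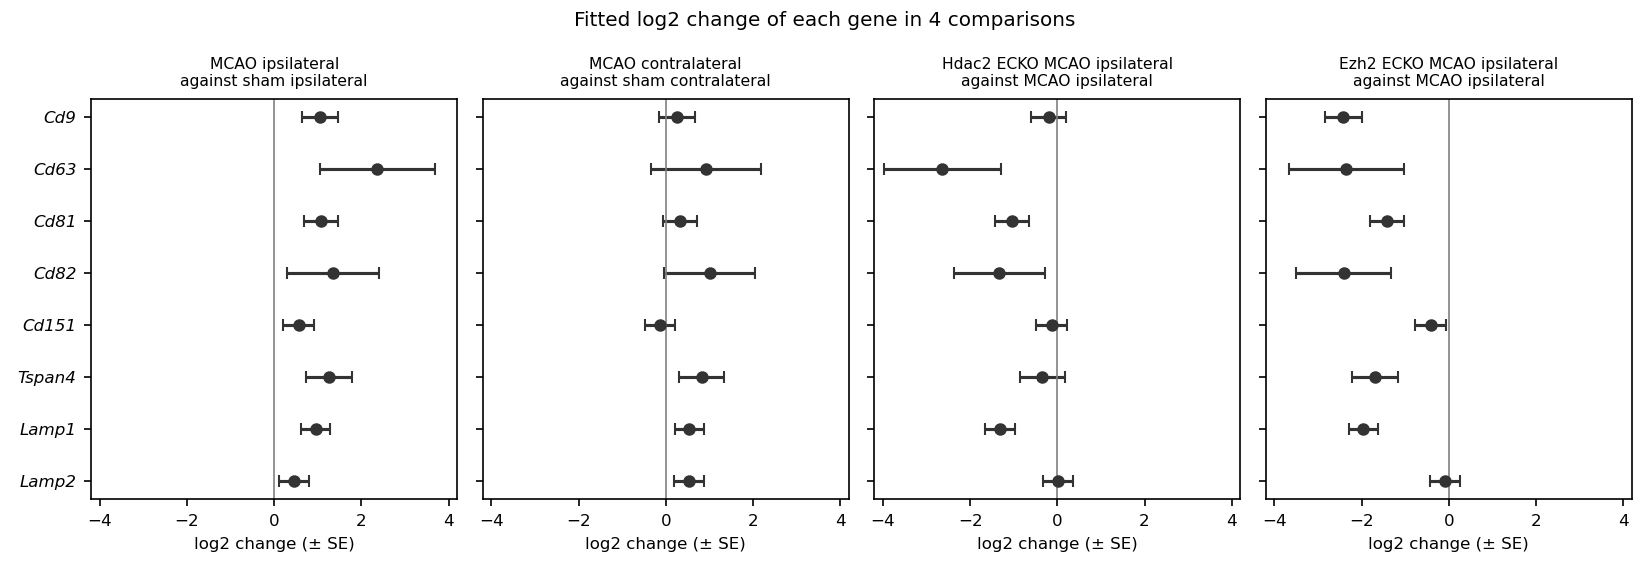
Fitted log2 change with its SE (horizontal bars) for the 8 genes in 4 comparisons, with the vertical line at no change. All 8 points lie right of the line for MCAO against sham ipsilateral, from 0.45 to 2.36, and left of it for Ezh2 ECKO against MCAO ipsilateral, from -2.42 to -0.09.

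All 8 genes had a higher fitted level in MCAO ipsilateral than in sham ipsilateral, the comparison that asks what occlusion did to the endothelium of the injured side, but 0 passed the test. The log2 change was 1.05 ± 0.41 (SE) for Cd9, 1.08 ± 0.39 for Cd81, 1.26 ± 0.52 for Tspan4 and 0.95 ± 0.33 for Lamp1. For Cd63 it was 2.36 ± 1.32, for Cd82 1.35 ± 1.05, for Cd151 0.56 ± 0.35 and for Lamp2 0.45 ± 0.35. Adjusted p-values from edgeR's quasi-likelihood test ran from 0.588 to 0.792, and 4 of the 8 genes had an unadjusted p under 0.05. Among all tested genes, 0 of 17094 genes (0%) were called, with 1210 at an unadjusted p under 0.05 and a smallest adjusted p of 0.125. Tspan4 and Lamp1 did not overlap between the groups, as 13.3% of tested genes did not in that direction. The median change was 1.06 over the 8 genes and -0.09 over all tested genes, of which 45.9% were higher. Background receptor counts were 285 to 716 CPM in sham ipsilateral and 154 to 296 in MCAO ipsilateral. With that background as a covariate the median of the 8 genes was 0.71 against -0.04, with Cd9 at 0.81, Tspan4 at 0.66 and Cd82 at 0.51. The part of background was not tested.

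The call depended on the test. With limma voom and sample weights, 1273 genes were called, among them Cd9 (1.20, adjusted p 0.0319), Cd81 (0.96, 0.0314), Tspan4 (1.27, 0.0183) and Lamp1 (0.90, 0.0233). DESeq2 called 71 genes and 0 of the 8, and over all alternatives the adjusted p of each of these 4 genes reached 1. MCAO ipsilateral is also the reference of the Ezh2 and Hdac2 contrasts, so the direction here is not independent of theirs. Total counts were 32563872 to 39071573 per library in sham ipsilateral and 40711581 to 51313194 in MCAO ipsilateral, without overlap. The part of depth was not tested. Beside these genes, the microglia and leukocyte markers summed to 11.1 to 31.5 CPM in MCAO ipsilateral and 5.53 to 8.58 in sham ipsilateral, and the platelet markers to 36.3 to 39.5 and 18.3 to 23.8. The endothelial sum (29266 to 42705 against 22343 to 29049, 8 of 13 genes higher) and the neuron sum (126 to 182 against 56.0 to 110, 2 of 5 higher) were also above sham. The pericyte and smooth muscle markers were below it without overlap, at 38.8 to 104 against 106 to 162 CPM, with 8 of 9 lower and a median of -0.90. None of these markers was called, and their part in the levels was not tested.

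On the contralateral side, 7 of 8 genes had a higher fitted level in MCAO than in sham, with log2 changes from -0.13 (Cd151) to 1.01 (Cd82), and 0 were called. The change was 0.26 ± 0.41 (SE) for Cd9, 0.54 ± 0.33 for Lamp1, 0.82 ± 0.51 for Tspan4 and 0.53 ± 0.35 for Lamp2, and no gene had an unadjusted p under 0.05. Adjusted p-values (edgeR) lay between 0.92 and 0.966, and 0 of 17094 genes (0%) were called, with 754 at an unadjusted p under 0.05. The median was 0.54 over the 8 genes and 0.17 over all. Background receptor counts were 152 to 1889 CPM in MCAO contralateral and 207 to 326 in sham contralateral. With that background as a covariate the median was 0.43 over the 8 genes and -0.14 over all, with Cd82 at 0.46. The part of background was not tested. Beside these genes, the pericyte and smooth muscle markers were lower in 9 of 9 (median -1.11, sums of 17.3 to 67.5 against 102 to 199 CPM) and the astrocyte sums were lower (37.3 to 54.3 against 58.9 to 92.2). The neuron markers had 4 of 5 higher with a median of 2.10, and the oligodendrocyte markers 7 of 8 tested with 1.20. The sums of both lists overlapped between the groups. None of these markers was called, and their part in the levels was not tested. Between the sides of occluded mice the 8 genes split 5 higher and 3 lower on the ipsilateral side, from -0.32 (Lamp2) to 0.89 (Cd63), and every group pair overlapped. There 0 genes (0%) of the table were called, with 526 at an unadjusted p under 0.05. Astrocyte markers summed to 55.2 to 65.2 CPM ipsilaterally and 37.3 to 54.3 contralaterally, the marker list without overlap there.

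Between the sides of sham mice all 8 genes had a lower fitted level ipsilaterally, from -0.93 ± 0.41 (SE) for Cd9 to -0.04 ± 1.03 for Cd82, with a median of -0.45 against 0.07 over all genes. None was called: the edgeR adjusted p was 1 for each, 1 gene (Cd9) had an unadjusted p under 0.05, and 0 of 17094 genes (0%) were called in the table, with 317 at an unadjusted p under 0.05. Cd151, at 32.1 to 51.3 CPM ipsilaterally and 51.4 to 61.5 contralaterally, was the gene without overlap, as 6.98% of tested genes were in that direction. For Cd9 this difference between sham sides was close in size to the 1.05 between MCAO and sham ipsilateral, and both rest on the sham ipsilateral libraries. Marker sums were lower ipsilaterally without overlap for endothelium (22343 to 29049 against 30909 to 41688 CPM), red cells (19222 to 59003 against 72026 to 129586), neurons (56.0 to 110 against 126 to 185) and platelets (18.3 to 23.8 against 25.1 to 37.9), and their part was not tested.

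In the libraries labelled Hdac2 ECKO, Lamp1 and Cd81 were lower than in MCAO ipsilateral in all 3 libraries, while Cd9 and Lamp2 were near it. The log2 change was -1.31 ± 0.34 (SE) for Lamp1 (edgeR adjusted p 0.273), a ratio of means of 2.48, and -1.04 ± 0.39 for Cd81 (0.426), a ratio of 2.05. For Cd9 it was -0.20 ± 0.41 (0.891), for Lamp2 0.01 ± 0.34 (0.993), for Tspan4 -0.34 ± 0.51 (0.850) and for Cd151 -0.13 ± 0.35 (0.922). Cd63, at -2.64 ± 1.34, and Cd82, at -1.33 ± 1.05, had the widest errors. None of the 8 was called and 2 (Lamp1 and Cd81) had an unadjusted p under 0.05. Over all tested genes, 2 (0.0117%) were called and 1683 had an unadjusted p under 0.05. The absence of overlap seen for Lamp1 and Cd81 was shared by 10.3% of tested genes in that direction. The median change was -0.69 over the 8 genes and 0.11 over all tested genes. Background receptor counts were 198 to 639 CPM in Hdac2 ECKO and 154 to 296 in MCAO ipsilateral. With that background as a covariate the medians were -0.30 and 0.06, with Cd81 at -0.78 and Cd82 at -0.51. The part of background was not tested.

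DESeq2 called Lamp1 in this contrast, at -1.22 with an adjusted p of 0.0397, and 238 genes in all. Over the other alternatives and left-out libraries the adjusted p of Lamp1 reached 0.997 and its change stayed between -1.54 and -0.99. The table's count was 0 without MCAO ipsilateral replicate 1 or 2 or Hdac2 ECKO replicate 1, 1 without Hdac2 ECKO replicate 2, 4 without MCAO contralateral replicate 2, and 18 without MCAO ipsilateral replicate 3 or MCAO contralateral replicate 1. Beside these genes, 9 of 11 tested microglia and leukocyte markers were fitted lower in Hdac2 ECKO (median -1.57, sums of 2.32 to 16.3 against 11.1 to 31.5 CPM), as were 7 of 9 pericyte and smooth muscle markers (-1.0, 22.1 to 69.7 against 38.8 to 104) and 5 of 6 astrocyte markers (-0.35). Red cell markers had 5 of 6 higher (1.95, 49294 to 297852 against 38267 to 65446). All these sums overlapped, none of the markers was called, and their part in these levels was not tested. The Hdac2 and Ezh2 contrasts share their MCAO ipsilateral libraries, so their values stand side by side without a measure of likeness: -1.31 and -1.96 for Lamp1, -1.04 and -1.41 for Cd81, and -0.20 and -2.42 for Cd9.

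Against sham ipsilateral, the libraries labelled Hdac2 ECKO had 6 of the 8 genes higher and 2 lower, and 0 were called. Cd9 was higher in all 3 libraries, by 0.85 ± 0.41 on the log2 scale (SE; edgeR adjusted p 0.703), as 6.96% of tested genes were. Tspan4 stood at 0.92 ± 0.52 (0.819) and Lamp1 at -0.36 ± 0.33 (1), and no gene of the 8 had an unadjusted p under 0.05. Over all tested genes, 0 (0%) were called, with 1221 at an unadjusted p under 0.05 and a smallest adjusted p of 0.0797. Beside these genes, pericyte and smooth muscle markers were lower in 9 of 9 (median -2.13, sums of 22.1 to 69.7 against 106 to 162 CPM), red cell markers higher in 6 of 6 (2.25) and astrocyte markers lower in 5 of 6 (-1.01). The neuron sums were higher without overlap, at 130 to 179 against 56.0 to 110 CPM. None of these markers was called, and their part was not tested.

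Genes that work with these 8 were followed in 7 lists. Of 25 other tetraspanins 20 passed the filter, and in Ezh2 ECKO against MCAO ipsilateral 1 rose, Tspan12, with 10 fitted lower and 10 higher and a median of -0.01 (0.25 with RLE scaling). Tspan12, the tetraspanin of the Norrin and Frizzled4 signalling complex of vessels, was at 376, 229 and 430 CPM in Ezh2 ECKO and at 134, 142 and 117 in MCAO ipsilateral. Every Ezh2 ECKO value lay above the MCAO ipsilateral ones, as was so for 13.6% of all tested genes, and 0.228% of all tested genes were called higher. Its log2 change was 1.39 ± 0.31 (SE; edgeR adjusted p 0.0356), in the opposite direction to the 6 chosen tetraspanins. Of 13 partners of tetraspanins (integrins, Igsf8, Ptgfrn, Adam10 and others) 11 were tested and 0 were called, with a median of -0.33 (0.03 in limma voom).

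Lysosomal genes were mostly fitted lower in the libraries labelled Ezh2 ECKO, and 3 passed the test as lower. These were 1 of 22 other membrane proteins and 2 of 16 vacuolar ATPase genes, with 0 of 34 hydrolases and 0 of 15 regulators. Of all tested genes 1.23% passed as lower. The 22 other lysosomal membrane proteins had 13 fitted lower and 9 higher. Their median was -0.17 against 0.17 over all genes (-0.00 against 0.36 with RLE scaling). Among them 1 fell, Tmem192, which was at 2.70, 0.114 and 3.35 CPM in Ezh2 ECKO and 48.7, 75.7 and 26.6 in MCAO ipsilateral. Its log2 change was -4.61 ± 1.12 (SE; edgeR adjusted p 0.0437), but it was also at 0.816 CPM in MCAO contralateral replicate 1, the library with high background. Of 16 subunits and accessory proteins of the vacuolar ATPase, the proton pump that acidifies lysosomes, 12 were fitted lower (median -0.51) and 2 fell. Atp6v0b was at 67.8, 58.5 and 74.5 CPM in Ezh2 ECKO and 251, 329 and 186 in MCAO ipsilateral. It changed by -1.93 ± 0.40 (0.0291), and Atp6v0c, at 49.4 ± 9.70 against 299 ± 170 CPM (SD, n = 3), changed by -2.60 ± 0.63 (0.0434).

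None of 34 lysosomal hydrolases and cofactors was called, although 29 were fitted lower, with a median of -0.64 against 0.17 over all genes (-0.45 against 0.36 with RLE scaling, and -0.27 against -0.01 with background as a covariate). The 15 lysosome regulators had 12 lower, a median of -0.25 and 0 called, and the 21 genes of multivesicular bodies and exosome release 13 lower, -0.39 and 0 called. In the other 6 comparisons 0 genes of the 7 lists were called. For MCAO against sham ipsilateral the hydrolases had 28 of 34 higher with a median of 0.55, the vacuolar ATPase 14 of 16 with 0.53 and the multivesicular body genes 16 of 21 with 0.34, against -0.09 over all genes. With background as a covariate these medians were 0.15, 0.36 and 0.14, against -0.04. For Hdac2 ECKO against MCAO ipsilateral 27 of 34 hydrolases were lower with a median of -0.46, and 16 of 21 multivesicular body genes with -0.32, against 0.11. With the covariate these were -0.24 and -0.37, against 0.06.

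The 4 calls in these lists did not hold in every fit. With the background covariate all 4 were lost: Tspan12 was at 1.26 (adjusted p 0.0976), Atp6v0b at -1.36 (0.113), Atp6v0c at -1.29 (0.244) and Tmem192 at -3.17 (0.185). They were also lost in the fit that adds the replicate number, at 1.38, -1.93, -2.57 and -4.71 in that order, with adjusted p-values of 0.0558 to 0.0759. The calls of Atp6v0c and Tmem192 were lost in limma voom as well. Atp6v0b lost its call, with an adjusted p up to 0.171, in 5 of 18 fits that left out 1 library, namely MCAO ipsilateral replicates 1 and 2 and each Ezh2 ECKO replicate. Tspan12 lost it in 7, up to 0.171, without any MCAO ipsilateral replicate, Ezh2 ECKO replicates 1 or 3, sham ipsilateral replicate 3 or sham contralateral replicate 1. Atp6v0c lost it in 11, up to 0.250, and Tmem192 in 13, up to 0.191, in both cases among them MCAO ipsilateral replicates 1 and 2 and all Ezh2 ECKO replicates.

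**Figure D4:**
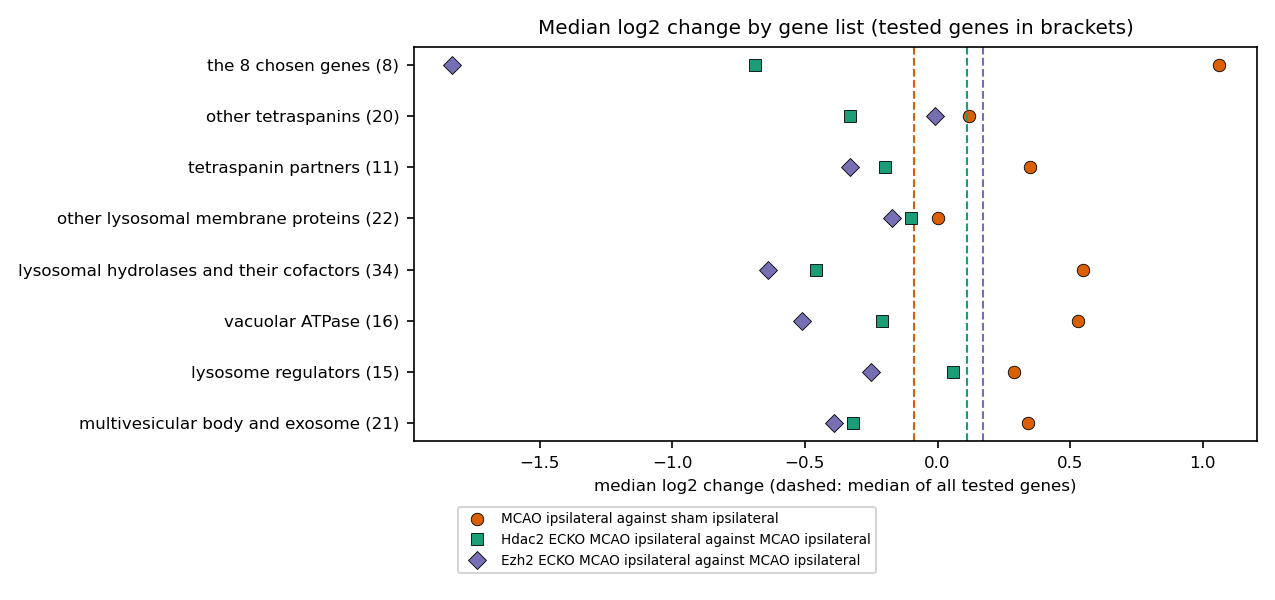
Median fitted log2 change (horizontal axis) of the 8 chosen genes and of 7 gene lists in 3 comparisons, with the number of tested genes in brackets and dashed lines at the median of all tested genes. The chosen genes stand at 1.06 for MCAO against sham and -1.83 for Ezh2 ECKO, but Cd9 and Lamp1 were picked for their low Ezh2 ECKO levels and both comparisons use the MCAO ipsilateral libraries, so these points are not compared with the lists. The hydrolases stand at 0.55 and -0.64.

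Across the 18 libraries the levels of Cd9, Cd81, Tspan4 and Lamp1 were high and low in much the same libraries. This is a description only, since the points share groups and depth. Pearson r of log2 CPM was 0.87 for Cd81 and Lamp1, 0.78 for Cd9 and Cd81, 0.77 for Cd9 and Lamp1, 0.77 for Cd81 and Tspan4 and 0.84 for Cd82 and Tspan4 (n = 18). Without the 3 Ezh2 ECKO libraries Cd9 and Lamp1 gave 0.546 and Cd81 and Lamp1 0.880. Lamp2 followed none of them, with r from -0.33 to 0.17. The same levels also followed the total count of the library, with r of 0.92 for Tspan4, 0.82 for Cd82, 0.78 for Cd81, 0.66 for Cd9, 0.62 for Cd151 0.59 for Lamp1, 0.26 for Cd63 and -0.07 for Lamp2. With the background receptor level r was -0.88 for Cd82, -0.85 for Tspan4, -0.75 for Cd151, -0.70 for Cd81, -0.55 for Cd9, -0.48 for Lamp1, -0.24 for Cd63 and 0.20 for Lamp2, and its part in the shared pattern was not tested.

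Among 7813 genes whose mean reached 10 CPM, the pattern of Cd9 over the 18 libraries was most like that of Ifi35 (r 0.915), Atp6v0b (0.913), Serpinb6a (0.902), Anxa5 (0.891) and Nfkbia (0.887). In the 15 libraries other than Ezh2 ECKO the same 5 genes gave 0.857, 0.819, 0.834, 0.841 and 0.813. The pattern of Lamp1 was most like those of Prr13 (0.935), Dda1 (0.933), Tcn2 (0.925), Babam1 (0.916) and Psmc4 (0.914), which gave 0.903, 0.905, 0.925, 0.875 and 0.903 in those 15. Among all genes compared, Cd81 ranked 33 in likeness to Lamp1, Cd9 ranked 272 and Lamp2 ranked 3966.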

How the data were processed

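The authors deposited 1 table of counts per gene for 18 libraries of sorted mouse cortical endothelial cells. Its name calls them normalized, but they are whole numbers with differing totals, and 77.3% to 89.4% of counts from 1 to 20 in a library are even, so they were used as unscaled counts. The submitters' processing notes name FastQC, cutadapt, STAR, featureCounts, DESeq2 and build mm10, while versions and strand setting are not given in the sources used here. A total of 0 columns had no sample.

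Genes reaching a count of 10 in 3 or more libraries (17094) were fitted with edgeR 4.0.16 (R 4.3.3), TMM scaling and 6 group means over all 18 libraries. Its quasi-likelihood test was adjusted by Benjamini-Hochberg over those genes, and calls need an adjusted p under 0.05. SE is the log2 change divided by the square root of F. CPM uses the TMM-scaled total, and correlations use log2 CPM with a prior count of 2. A floor of 3 counts covers counting error only, since reads carry no molecular identifiers, and it is too low if counts came in pairs.

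The labels' titles gave groups and replicate numbers. The members and gene lists were chosen with earlier results of these data known. Named genes were the 8 members, Hdac2, Ezh2, up to 3 called genes per list and comparison, and the 5 genes most correlated with Cd9 or Lamp1. Coordinates matched GENCODE M21, and promoters are from RefSeq. Alternatives were RLE and upper quartile scaling, no filter, halved counts, a replicate block, a background covariate, only the groups compared, limma 3.58.1 voom, DESeq2 1.42.0 and each library left out. The fit was tested on simulated data.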

Additional observations from a re-analysis of the deposited data

How the results depend on the processing

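In the Ezh2 ECKO contrast Cd9, Cd63, Cd81, Cd82, Cd151, Tspan4 and Lamp1 kept a lower fitted level under all 9 alternatives and in all 18 fits without 1 library. Lamp2 turned to 0.07 with RLE scaling, 0.00 with upper quartile scaling, 0.03 with no filter on low counts, 0.02 with only the groups compared and 0.07 in DESeq2, and ran from -0.25 to 0.07 with a library left out. The 250 genes called there became 435 with halved counts, 13 with the background covariate, 485 with only the groups compared, 377 in limma voom, 1617 in DESeq2, and 5 to 1362 with a library left out. Of the 8 genes, limma voom called 4 for MCAO against sham ipsilateral and DESeq2 called 1 for Hdac2 ECKO against MCAO ipsilateral, where 0 were called otherwise. The cause was not tested for any of these changes.

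The labels do not say whether same-numbered libraries of opposite sides came from one mouse. Of 45 same-numbered pairs between groups, 9 had deviations correlated above 0.1, with a median of -0.015. Pairs that join different operations or genotypes cannot show pairing within a mouse. For the 3 pairs of opposite sides, the correlations ran from -0.0367 to 0.21 in sham and from -0.17 to 0.273 in MCAO mice. Pairing thus stayed undecided, and the main fit took the sides as unpaired. With the replicate number as a block 12 genes were called in the Ezh2 ECKO contrast, and Cd82 turned to 0.02 between sham sides and -0.01 for Hdac2 ECKO against sham ipsilateral.

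Small changes turned sign in other comparisons. For Hdac2 ECKO against sham ipsilateral, Cd81 became -0.00 with upper quartile scaling and -0.02 with the background covariate. For Hdac2 ECKO against MCAO ipsilateral, Cd151 became 0.00 with no filter, and the background covariate gave Cd151 0.01, Tspan4 0.02 and Lamp2 -0.09, while limma voom gave Lamp2 -0.01. Between MCAO sides, Tspan4 became 0.05 with no filter, and limma voom gave Cd81 -0.18, Cd82 -0.28, Lamp1 -0.00 and Lamp2 0.00. Between sham sides, Cd82 became 0.02 with no filter, and the background covariate gave Cd82 0.56 and Tspan4 0.01.

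With 1 library left out, MCAO against sham contralateral ran from -0.11 to 0.57 for Cd9 and -0.21 to 0.02 for Cd151. Between MCAO sides the ranges were -0.50 to 0.22 for Cd9, -0.25 to 0.56 for Cd81, -0.30 to 0.80 for Cd82, -0.02 to 0.47 for Cd151, -0.52 to 0.60 for Tspan4, -0.13 to 0.45 for Lamp1 and -0.54 to 0.06 for Lamp2. Between sham sides they were -0.99 to 0.39 for Cd63, -1.18 to 0.45 for Cd82 and -0.61 to 0.01 for Lamp2. For Hdac2 ECKO against MCAO ipsilateral they were -0.61 to 0.16 for Cd9, -0.47 to 0.15 for Cd151 and -0.12 to 0.09 for Lamp2, and against sham ipsilateral -5.19 to 0.29 for Cd63, -0.13 to 0.30 for Cd81 and -0.86 to 1.12 for Cd82.

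Counts of genes called in the other comparisons also moved. For MCAO against sham ipsilateral (0 called) they were 2 with no filter, 1 with the background covariate, 74 with only the groups compared, 1273 in limma voom and 71 in DESeq2. For MCAO against sham contralateral (0) limma voom gave 7 and DESeq2 26, and between sides DESeq2 gave 6 in MCAO and 6 in sham mice, and limma voom 1 in sham mice. For Hdac2 ECKO against MCAO ipsilateral (2) they were 4 with RLE scaling, 5 with halved counts, 10 with the background covariate, 0 with only the groups compared, 32 in limma voom, 238 in DESeq2 and 0 to 18 with a library left out. For Hdac2 ECKO against sham ipsilateral (0) they were 2 with RLE scaling, 1 with no filter, 6 with the background covariate, 8 with only the groups compared, 266 in limma voom, 237 in DESeq2 and 0 to 4 with a library left out. Cd63 and Cd82, the 2 genes with the lowest mean levels, had the widest errors, and the cause was not tested.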
